A study of Mus musculus with 2 samples.

Results

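The keratins that mark the basal and the suprabasal layers of the epidermis were examined in newborn mouse tooth and skin. They are the 7 genes Krt5, Krt14, Krt15, Krt1, Krt2, Krt77 and Krt10, out of 24325 genes with a name on the array. Members were taken by name, as every non-control spot on both arrays whose gene name was 1 of these 7, so no measured value took part in the choice. The rule gave 10 probes, each printed as 1 spot on each array. Krt5, Krt2 and Krt10 have 2 probes and the other 4 genes have 1. There was 1 array of tooth RNA and 1 array of skin RNA, both from wild-type mice at postnatal day 0 per the labels and both on the same slide, while the study's methods give an age of postnatal day 1. The tissues were not separated into cell types and the number of animals behind each array is not given, so no spread between animals was measured, no difference could be tested, and every value below is a description of these 2 arrays.

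Keratins are the intermediate filament proteins of epithelial cells. A filament is built from pairs of an acidic type I chain and a basic type II chain, and the type I and type II genes lie in separate clusters. Krt5 (type II) and Krt14 (type I) form the filaments of the dividing basal layer of stratified epithelia, and Krt15 is a further type I keratin of basal cells. When a keratinocyte leaves the basal layer of the epidermis it stops making these chains and makes Krt1 (type II) with Krt10 (type I). Krt2 joins them in the upper layers, and Krt77, a type II relative of Krt1, is also a suprabasal chain. The tooth germ is covered by an epithelium of its own, in which the inner layer becomes the enamel-forming ameloblasts and does not cornify.

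The letters that were read out are shown first, because each value is the brightness of a 60-base probe that binds labelled RNA from 1 stretch of a gene. The probes are given 5′ to 3′ in lower case, in the sense of the transcript, and all lie on the minus strand of mm9, which is the build of the array. They are the dimmer Krt5 probe at chr15:101542056-101542115, the Krt14 probe within chr11:100064683-100065288, the Krt15 probe at chr11:99993331-99993390, the brighter Krt2 probe at chr15:101642000-101642059, the Krt77 probe at chr15:101691358-101691417 and the dimmer Krt10 probe at chr11:99247846-99247905. The Krt14 interval spans 606 bases for a probe of 60, so this probe is split on the genome.
Krt5: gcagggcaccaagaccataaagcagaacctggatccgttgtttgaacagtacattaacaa
Krt14: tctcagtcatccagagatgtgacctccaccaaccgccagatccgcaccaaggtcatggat
Krt15: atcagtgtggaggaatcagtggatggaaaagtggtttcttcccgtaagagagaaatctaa
Krt2: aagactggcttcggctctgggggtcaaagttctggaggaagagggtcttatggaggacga
Krt77: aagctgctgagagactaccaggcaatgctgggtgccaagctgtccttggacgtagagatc
Krt10: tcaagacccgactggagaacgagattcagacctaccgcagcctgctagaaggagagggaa

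The other 4 probes are given by position only. They are the Krt1 probe at chr15:101676107-101676166, the brighter Krt5 probe at chr15:101537514-101537573, the dimmer Krt2 probe at chr15:101641326-101641385 and the brighter Krt10 probe, of which 21 bases are placed at chr11:99246538-99246558. Of the 10 probes, none shared a run of more than 15 bases with any probe of another gene on the array, on either strand. Probes were not compared with whole transcripts, so binding of related keratin RNAs, such as Krt16 RNA at the Krt14 probe, was not tested. No transcript annotation of mm9 was used here, so the exon beneath a probe is not named.

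All 7 keratins were brighter on the skin array, but by very different amounts. The suprabasal keratins Krt1 and Krt10 were higher in skin by 336.5-fold or more, Krt15, Krt77 and Krt2 by about an order of magnitude or more, and Krt5 and Krt14 by close to 2-fold. Each difference is the skin minus the tooth level, where a level is the log2 processed intensity less the 75th percentile of its own array. A difference toward skin of 2-fold or more was found for 6 of the 7 genes, against 14.2% of the 17409 genes that passed the software's background call on 1 or both arrays. None of the 7 was higher in tooth by 2-fold or more, against 15.5% of all genes. A difference of 16-fold or more toward skin was found for 4 of the 7, against 3.04% of all genes. The count of 6 was 5 under quantile, median, spike-in or no scaling, where Krt14 fell below 2-fold. The median difference was 4.56 over the 7 genes (2.85 with normexp, a model-based background correction) and -0.04 over all genes. The count of 4 at 16-fold included Krt15, which fell below that threshold (3.93) under spike-in or no scaling. It also included Krt77, which fell below it (2.56) with normexp. Krt77 passed the filter on dim probes through the skin array alone, so it could only differ toward skin. Of the 6 members measured on both arrays, 5 were higher in skin by 2-fold or more. In bulk RNA of whole tissue, fewer cells of a type and less RNA per cell cannot be told apart.

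**Figure D1:**
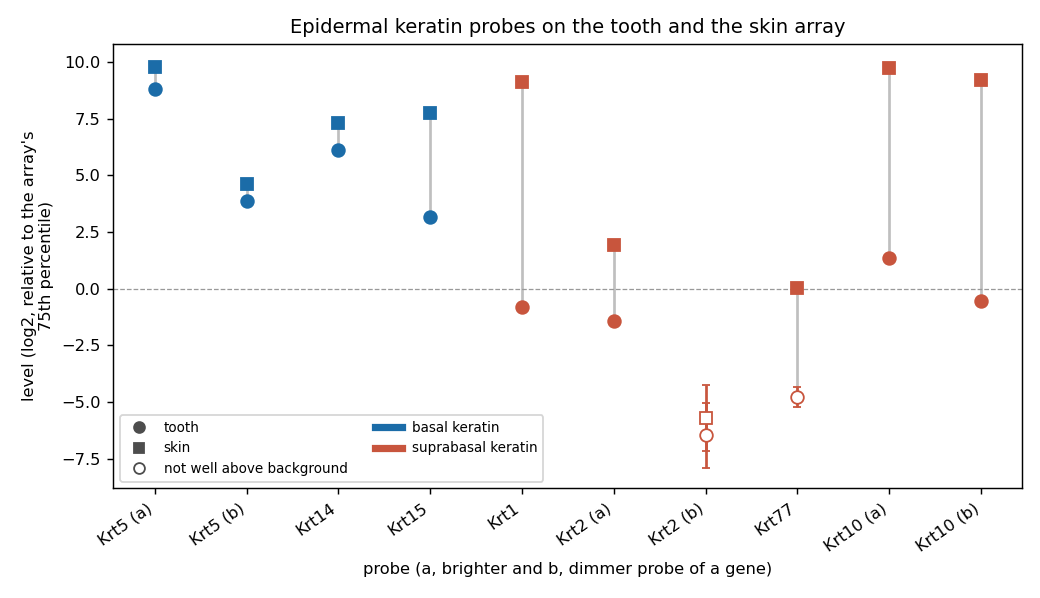
Levels of the 10 keratin probes (y axis, log2 relative to the 75th percentile of each array) in tooth (circles) and skin (squares), with bars for the error given by the extraction software. Blue marks basal and red suprabasal keratins, open symbols were not well above background, and grey lines join the arrays. Krt1 and both Krt10 probes span 8.39 to 9.93 between the arrays, whereas both Krt5 probes and Krt14 span 0.77 to 1.19.

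Krt1 gave a processed intensity of 245 in tooth and 154707 in skin, which are levels of -0.80 and 9.13. It was therefore dim but well above background in tooth and among the bright probes in skin. Its difference was 9.93 ± 0.21 (software error), a 978.6-fold higher level in skin. Only 7 of the 15271 genes measured on both arrays had a larger difference toward skin. The extraction software assigns an error of 10% to a bright spot, and this error does not hold any variation between animals, RNA preparations or labelling reactions.

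Krt10, the type I partner of Krt1, was read by 2 probes. The brighter probe gave intensities of 1101 in tooth and 239177 in skin, or levels of 1.36 and 9.76, with a difference of 8.39 ± 0.20 (336.5-fold). The dimmer probe gave 297 and 164867, or levels of -0.53 and 9.22, with a difference of 9.75 ± 0.21 (861.6-fold). Both probes were well above background on both arrays and both were far higher in skin. They disagreed by 1.36, which is wider than the gap in 95.4% of the 3241 genes that have exactly 2 probes measured on both arrays. The median gap over those genes was 0.26. By its brighter probe, Krt10 had 25 genes above it in the order of differences.

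Krt2, the type II chain of the upper suprabasal layers, was read by 2 probes, of which 1 was measured. The brighter probe gave 157 in tooth and 1065 in skin, or levels of -1.45 and 1.95, with a difference of 3.39 ± 0.21 (10.5-fold). The dimmer probe gave 4.84 in tooth and 5.33 in skin and neither value passed the background call. The fold of Krt2 thus rests on 1 of its 2 probes. The mean over both probes gave 2.08.

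Krt77 was not well above background in tooth, with an intensity of 15.7, and was well above it in skin, with 283. The levels were -4.77 and 0.04. The lowest signal that the tooth array called well above background was 18.7, at a level of -4.52, and against that signal Krt77 was at least 23.5-fold higher in skin. Under normexp, which uses the local background and a model fitted over each array and adds an offset of 50, its difference fell from 4.80 to 2.56. That was the largest shift of any member under another background correction.

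The basal keratins were bright on both arrays. Krt5 was read by 2 probes. The brighter gave 193710 in tooth and 240092 in skin, or levels of 8.82 and 9.76, with a difference of 0.94 ± 0.20 (1.92-fold). The dimmer gave 6218 and 6832, or levels of 3.86 and 4.63, with a difference of 0.77 ± 0.20 (1.70-fold). The probes differed from each other by 0.17, less than the software error of either. The spot of the brighter probe reached 26.1% of the scanner's saturation value in tooth and 32.9% in skin, and no spot on either array was saturated.

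Krt14, the type I partner of Krt5, gave 29580 in tooth and 43667 in skin, or levels of 6.11 and 7.31, with a difference of 1.19 ± 0.20 (2.29-fold). Its difference and that of Krt5 were 0.25 apart, within the error of 0.29 that the software gives to such a gap. Neither fold keeps its size under every scaling. The arrays hold control probes for spike-in RNA, 8 of which were well above background on both arrays. Scaling to these 8, which assumes equal amounts in both labellings, gave 0.31 for Krt5 and 0.56 for Krt14, both below 2-fold and both still toward skin. That scaling lowered all genes alike, by 0.63. Relative to the median gene, Krt5 stood at 0.99 and Krt14 at 1.24 under the 75th percentile, the median and the spike-in scaling, and at 0.66 and 1.04 under quantile normalization.

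Krt15 differed from the other basal keratins. It gave 3883 in tooth and 59229 in skin, or levels of 3.18 and 7.74. Its difference was 4.56 ± 0.20 (23.6-fold), with 178 genes above it in the order of differences. Over 14 other ways of processing the arrays its difference lay between 3.93 and 4.59. The gap between Krt15 and Krt14 was 3.37 ± 0.29, a 10.3-fold change in the ratio of their signals between the tissues.

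Ratios within an array do not depend on the single factor by which an array was scaled, so the suprabasal and basal chains of each type were compared in this way. The Krt1 signal relative to the Krt5 signal, both type II, was 509.5-fold higher in skin (log2 gap 8.99 ± 0.29). The Krt10 signal relative to the Krt14 signal, both type I, was 147.1-fold higher (7.20 ± 0.29), or 8.56 on the log2 scale with the dimmer Krt10 probe. The Krt2 signal relative to Krt5 was 5.47-fold higher (2.45 ± 0.29). The median difference was 8.39 over the 3 suprabasal genes measured on both arrays and 1.19 over the 3 basal genes. With the dim tooth value of Krt77 included, the suprabasal median was 6.60. These gaps show unequal change of the chains. They do not show that a basal keratin was equal in the tissues.

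**Figure D2:**
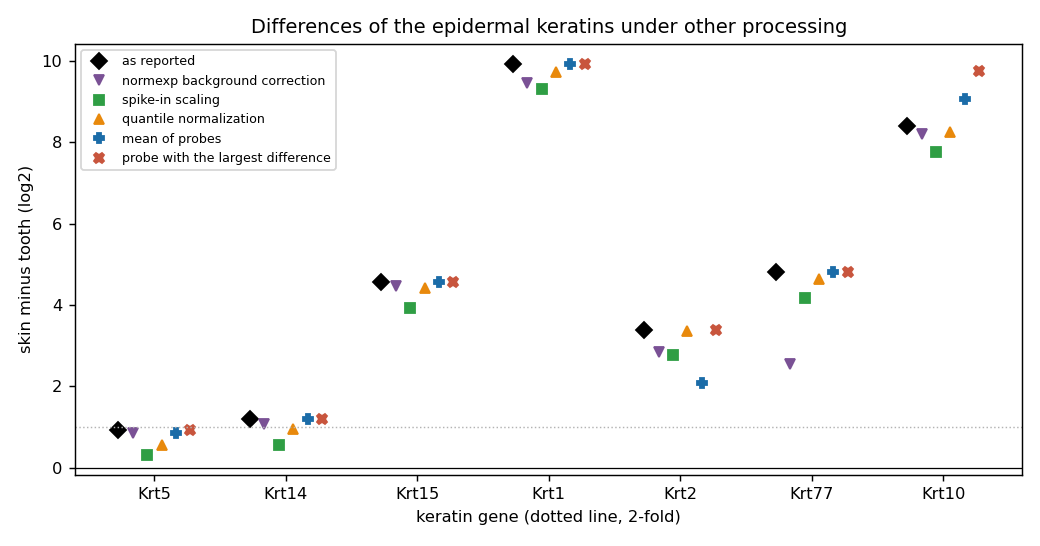
Difference between skin and tooth (y axis, log2) for each keratin as reported and under 5 other ways of processing the arrays, with the dotted line at 2-fold. Krt5 lies below the line in all of them, Krt14 crosses it under quantile and spike-in scaling, and the other 5 genes stay above it.

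In the order of differences, Krt5 (0.94) and Krt14 (1.19) were neighbours that did not differ beyond the software error. Krt2 (3.39) came next and lay 1.17 below Krt15 (4.56), a gap larger than that error. The bound for Krt77 (4.55) could not be placed apart from Krt15. Krt10 (8.39) and Krt1 (9.93) were 1.54 apart by the brighter Krt10 probe and 0.18 apart by the dimmer, so their order was not settled. The named genes closest to each member in difference, over the same 2 arrays, were Cysrt1 (9.97) and Crct1 (9.92) around Krt1, Lhx2 (8.41) and Wdr65 (8.39) around Krt10, and Muc5ac (4.56) and Krtap5-2 (4.55) around Krt15. Around Krt2 they were Tnfrsf18 (3.40) and Pcdh19 (3.39), below Krt14 Fam83g (1.19), and around Krt5 C530042K13Rik (0.94) and Nog (0.94). Each of these genes lay within 0.04 of its keratin.

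The members were then set against the other genes of their clusters. Of 47 other keratins on the array, 44 passed the background call on 1 or both arrays. With dim values at their bound, 31 were higher in skin by 2-fold or more and 2 in tooth, with a median of 2.52 (1.89 without scaling between arrays). Of the 33 measured on both arrays, 23 were higher in skin by 2-fold or more and 1 in tooth. In the order of genes on chromosome 15, Krt2, Krt1 and Krt77 are consecutive, and their differences were 3.39, 9.93 and a bound of 4.55. On the far side of Krt77 lies Krt76, a keratin of the oral mucosa. It was well above background in tooth alone, by too little for a fold. On the near side of Krt2 lies Krt73, a keratin of the hair follicle's inner root sheath, at 4.92. Krt5 lies between Krt6a (-0.36) and the inner root sheath keratin Krt71 (11.98), so the 2 neighbours of Krt5 did not share a difference. On chromosome 11, Krt10 lies between Krt28 (5.83) and Krt12, which was well above background in skin alone. Krt15 lies between Krt13 (2.36) and Krt19 (1.03), and Krt14 between Krt9 (1.81) and Krt16 (2.61).

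**Figure D3:**
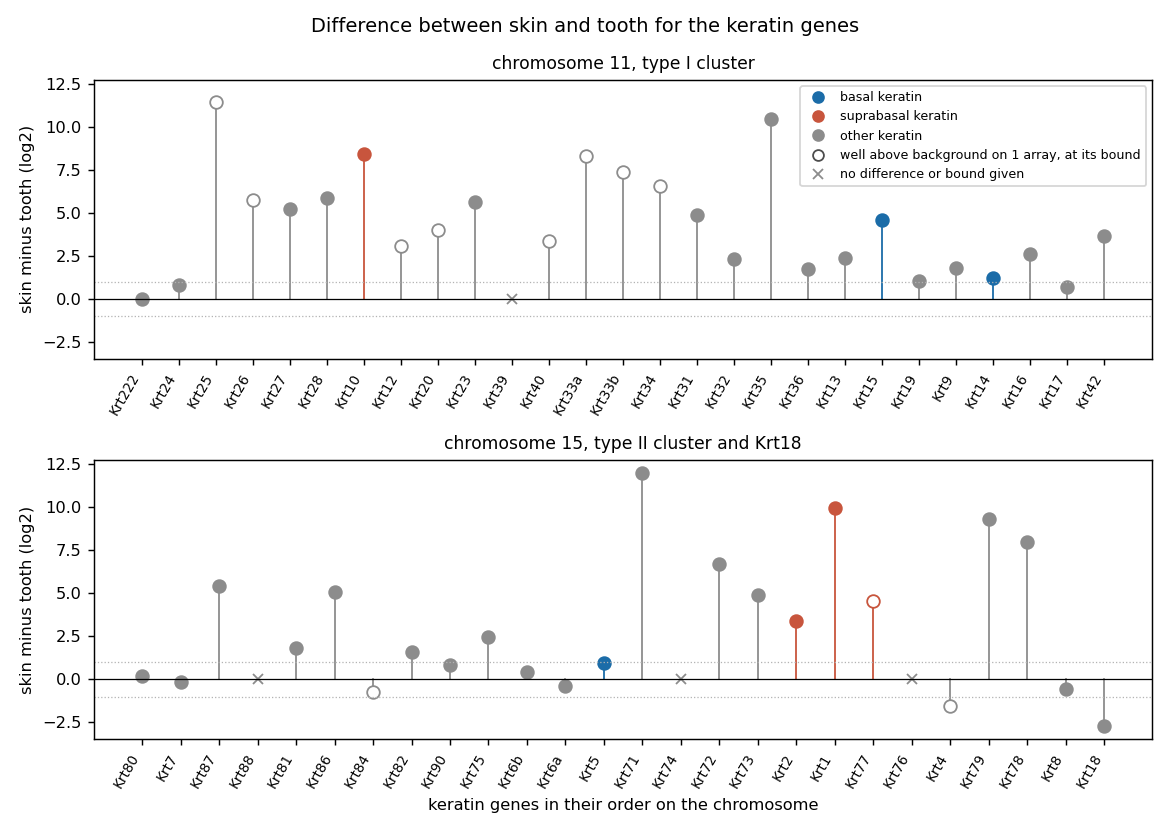
Difference between skin and tooth (y axis, log2) for the keratin genes in their order on chromosome 11 (top) and chromosome 15 (bottom), with dotted lines at 2-fold. Filled points were measured on both arrays, open points are bounds for genes well above background on 1 array, and crosses have no difference or bound. Krt1 (9.93) stands beside Krt2 (3.39) and Krt10 (8.39) beside Krt28 (5.83), each with a neighbour on the other side that has only a bound, and Krt5 (0.94) stands beside Krt71 (11.98).

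The sequence just before each gene's start was read for 5 of the 7 members from RefSeq on GRCm38.p6. Krt1 and Krt15 had no entry. The last 100 bases before the listed start are shown, 5′ to 3′ on the minus strand, because the windows of Krt2, Krt77 and Krt10 hold a shared word. The 2 members without it were higher in skin too. Capitals mark TATATA or TATAAA, which can overlap. The windows are chr15:101818170-101818269 for Krt2, chr15:101869706-101869805 for Krt77, chr11:99389365-99389464 for Krt10, chr15:101712906-101713005 for Krt5 and chr11:100206031-100206130 for Krt14.
Krt2: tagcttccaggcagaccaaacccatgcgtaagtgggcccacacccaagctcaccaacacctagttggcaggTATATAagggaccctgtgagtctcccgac
Krt77: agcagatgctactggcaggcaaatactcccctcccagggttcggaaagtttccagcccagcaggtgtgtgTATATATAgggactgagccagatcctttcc
Krt10: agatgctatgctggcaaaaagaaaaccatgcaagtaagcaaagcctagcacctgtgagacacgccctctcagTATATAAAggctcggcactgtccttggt
Krt5: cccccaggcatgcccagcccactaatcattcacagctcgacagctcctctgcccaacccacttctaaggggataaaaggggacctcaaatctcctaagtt
Krt14: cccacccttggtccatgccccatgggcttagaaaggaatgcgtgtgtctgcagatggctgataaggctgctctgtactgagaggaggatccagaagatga

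TATATA began 29 bases before the start of Krt2, 30 and 28 bases before that of Krt77 and 28 bases before that of Krt10, where TATAAA also began at 26 bases. Over the 250 bases before the start, on both strands, TATATA was found in 5.25% of 32851 promoters and TATAAA in 12.4%. Neither exact word stood in the windows of Krt5 and Krt14. Near matches, such as the letters ataaaa in the printed Krt5 window, were not searched for. Other words searched were CACCC, which was present in the 250 bases of Krt5 (3 times), Krt14, Krt2 and Krt10 and in 52% of all promoters, and TGANTCA and GCCNNNGGC, which none of the 5 members held, against 6.75% and 13.7% of all promoters. TATATA was looked for after the sequences had been read. These matches describe the letters and were not tied to the levels by any test.

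Genes of the same layers gave a setting for the keratins. All 15 genes listed for the spinous, granular and cornified layers were well above background in skin. Of these, 14 were at least 2-fold higher there, with a median difference of 7.48. Of the 11 measured on both arrays, 10 were at least 2-fold higher in skin, with a median of 6.64. The other 4 passed the filter through the skin array alone, so they could only differ toward skin. Among those measured on both arrays, Flg, which bundles keratin filaments in the cornified layer, differed by 12.89 and Sprr1b, a cornified envelope precursor, by 9.13. Hrnr, a relative of Flg, was at least 1529-fold higher in skin. The exception was the transglutaminase Tgm3, whose difference of 0.10 by its brightest probe turned to -0.53 under spike-in scaling. With the mean of probes or the probe of largest difference, all 15 genes, Tgm3 included, were at least 2-fold higher in skin. On the tooth array 11 of these 15 genes were well above background, among them Dmkn at a level of 3.28, Lor at 1.44 and Sbsn at 1.13, beside the levels of -0.80 for Krt1 and 1.36 for Krt10. The summed linear signal of the 15 genes, in units of each array's 75th percentile, was 22.6 in tooth and 4026 in skin. The part of any cornifying epithelium in the tooth RNA was not tested.

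The genes listed for the basal layer moved differently from Krt15. Of 12, 1 was higher in skin by 2-fold or more, 3 were higher in tooth by 2-fold or more and 8 lay within 2-fold, with a median of -0.30. Under spike-in scaling none of the 12 was higher in skin by 2-fold or more and 6 were in tooth. None was higher in skin by 2-fold or more with the mean of probes either, and 4 were in tooth. With the probe of largest difference none was in skin and 5 were in tooth. Trp63, the transcription factor that maintains basal keratinocytes, was at a level of 4.31 in tooth and 4.48 in skin (0.16, or -0.47 under spike-in scaling). Among the genes higher in tooth were Lama3 (-1.70) and Lamb3 (-1.47), which encode chains of basement membrane laminin. Dst (1.33), which anchors keratin filaments to hemidesmosomes, was the one higher in skin by 2-fold or more, by its brightest probe. That call was lost with the mean of its probes and with its probe of largest difference. Col17a1 (0.72), another hemidesmosome gene, was below 2-fold. By the brightest probe of each gene, the differences of Krt5 (0.94) and Krt14 (1.19) were below that of Dst. The difference of Krt15 (4.56) was above it.

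RNA of genes whose proteins tie keratin filaments to desmosomes or hemidesmosomes, or bundle them, was measured next. Of 12 listed genes 10 were higher in skin by 2-fold or more and none in tooth, with a median of 2.25. With the mean of probes 9 were higher in skin by 2-fold or more and none in tooth. With the probe of largest difference 9 were higher in skin and 1 in tooth. Of the 11 measured on both arrays, 9 were higher in skin by 2-fold or more. Eppk1, which binds keratin filaments, differed by 3.09, Jup, a plaque protein of desmosomes, by 2.69, and Dsp, the desmosome protein that binds filaments directly, by 1.77. Pkp3 (0.94) and Plec (0.84) were below 2-fold. Flg and Hrnr belong to this list and to the list of upper layers. Dst and Plec belong to this list and to the list of the basal layer. The lists are therefore not independent.

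Transcription factors and Notch genes of epidermal differentiation were mixed. Of 16, 9 were higher in skin by 2-fold or more and 1 in tooth, with a median of 1.14, which was 0.50 without scaling between arrays. Ovol1 (5.39), which limits keratinocyte proliferation as cells leave the basal layer, and Cebpa (4.66), a factor of suprabasal differentiation, had the largest differences toward skin. Tfap2c (4.40) and Grhl3 (3.16) followed. Maf (-2.52) was higher in tooth. Klf4, a factor of barrier formation, had levels of 4.09 in tooth and 5.33 in skin (1.24). Notch1 differed by 0.81. Trp63 (0.16) belongs to this list and to the list of the basal layer.

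Epithelial genes that are not particular to the epidermis give the differences that stood beside those of the keratins. Of 12, 7 were higher in skin by 2-fold or more and 1 in tooth, with a median of 1.23, beside 0.94 for Krt5 and 1.19 for Krt14. Under spike-in scaling the median of the list was 0.60. Cdh1, the cadherin of epithelial junctions, had levels of 3.06 in tooth and 3.12 in skin (0.06, or -0.57 under spike-in scaling), and Epcam differed by 0.66. Cldn4 (3.69) and Rab25 (2.72) were the highest toward skin. The simple-epithelial keratins Krt18 (-2.73) and Krt8 (-0.58) were the members of this list with higher levels in tooth. The summed linear signal of the list was 37.6 in tooth and 66.0 in skin. How far the share of epithelium in each tissue entered the keratin differences was not tested.

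**Figure D4:**
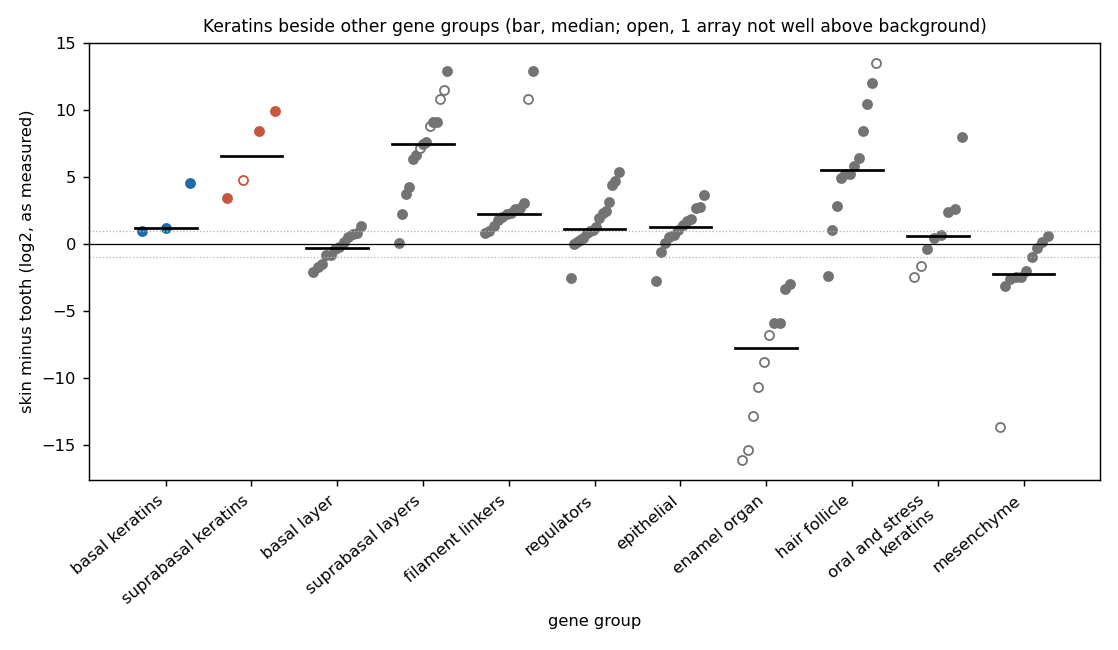
Difference between skin and tooth (y axis, log2, dim values as measured) for the basal and suprabasal keratins and for 9 gene groups, 1 point per gene, with a black bar at the median and dotted lines at 2-fold. The suprabasal keratins have a median of 6.60 and the suprabasal layer genes of 7.48 as plotted, or 8.39 and 6.64 over genes measured on both arrays, and the basal keratins have a median of 1.19 beside -0.30 for the basal layer genes. Open points were not well above background on 1 of the arrays.

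The tissue labels were checked on genes of other cells. All 10 enamel organ genes were higher in tooth by 2-fold or more, and 6 of them, among them Amelx (at least 16383-fold higher in tooth), were not well above background in skin. The median was -6.31 with dim values at their bound and -4.62 without the 6 dim genes. The other 4 include the enamel protease Klk4 (-5.92). Of 12 hair follicle genes 11 were higher in skin by 2-fold or more, with a median of 5.53, led by Krt71 (11.98), Krt35 (10.47) and Krt25 (at least 2759-fold). The exception was Msx2 (-2.40). Of the 11 hair follicle genes measured on both arrays, 10 were higher in skin by 2-fold or more. Among 10 genes of mesenchyme and odontoblasts 6 were higher in tooth by 2-fold or more and none in skin, with a median of -2.22. Of the 9 measured on both arrays, 5 were higher in tooth by 2-fold or more. Dspp was higher in tooth by at least 3087-fold. Probes well above background made up 56.7% of all probes in tooth and 52.5% in skin.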

How the data were processed

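RNA of whole tooth and whole skin was hybridised to 1 Agilent mouse 60-base array each. Per the labels, Cy3-labelled cRNA was made from each RNA and then column-purified. The deposited scanner files hold spot intensity values from Agilent Feature Extraction (version 10.7.3.1), background-subtracted and detrended within the array, with surrogates for very dim spots and yes-or-no calls. The deposited value table holds a ratio per spot, the processed intensity over 1 factor per array (430.7 for tooth, 274.5 for skin), after a percentile shift per the methods.

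Log2 processed intensities were averaged per probe after removal of outlier spots (0 among the members) and reduced by the array's 75th percentile over non-control probes (428 and 276, linear). A probe was detected when over 50% of its spots passed the software's background call. The brightest probe by mean stood for a gene. A gene dim on 1 array has a bound, against the lowest detected signal or its own value if higher. Names came from the array, updated by accession through RefSeq (27235 named probes, 82.1%). Coordinates are mm9 for probes and GRCm38.p6 for promoters, and gene order used names only. With 1 array per tissue no test was run, and the array number limits precision. Spots of replicated probes had a median SD of 0.08 in tooth and 0.09 in skin (log2), an SD of 0.12 for a difference, without variation between animals. The member genes, gene lists, 2-fold threshold and naming rule (all members and their probes, their nearest genes by difference, the 2 largest differences each way and largest bound of each list, and genes on which a sentence turns, chosen after their values were seen; some genes that the rule names are not reported here) were set with earlier results of these data known. Alternatives covered background, scaling, probe choice, detection, bounds and outliers. The functions were tested on simulated data. Software was R 4.3.3, limma 3.58.1, Python 3.11.15, numpy 2.4.6 and pandas 2.3.3.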

Additional observations from a re-analysis of the deposited data

How the results depend on the processing

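All 7 keratins were higher in skin under each of the 14 alternatives that gave them a value, and at least 2-fold in 5 or 6 of them. A threshold of 1.5-fold gave 7 and of 4-fold gave 5. The median over the 7 genes (4.56) was 2.85 with normexp background correction, 4.31 with median scaling, 3.93 with spike-in scaling, 3.93 without scaling and 3.98 without Krt77, the gene dim in tooth. The suprabasal median (6.60) was 5.52 with normexp, 6.35 with median scaling, 5.97 with spike-in scaling or none, 6.94 with the mean of probes, 7.28 with the probe of largest difference and 8.39 without Krt77. The basal median (1.19) was 0.95 with quantile normalization, 0.94 with median scaling and 0.56 with spike-in scaling or none. The gap between Krt1 and Krt5 (8.99) was 8.61 with normexp, and that between Krt10 and Krt14 (7.20) was 7.88 with the mean of probes and 8.56 with the probe of largest difference. The cause of each shift was not tested beyond the construction of the alternative. Over all genes, 2466 differed by 2-fold or more toward skin and 2691 toward tooth, against 1570 and 5682 with spike-in scaling, 2020 and 3500 with median scaling, 1743 and 1672 with normexp and 3676 and 2885 without a filter on dim probes. Signal near background limits Krt77 to a bound and gives the dimmer Krt2 probe no fold. No paired analysis was possible because each tissue has 1 array, and for the same reason no array could be left out.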

Other observations

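Keratins of the oral mucosa and of stressed or wounded epithelium, which tooth RNA with attached mucosa could hold, were mixed. Of 8, 3 differed by 2-fold or more toward skin and, with dim values at their bound, 1 toward tooth, with a median of 0.57 that turned to -0.07 without scaling between arrays. The median was 0.88 with the mean of probes and 1.19 with the probe of largest difference, and under each 4 differed toward skin by 2-fold or more. Over the 6 measured on both arrays the median was 1.52. Krt78 (7.98) and Krt16 (2.61) were the highest toward skin. Krt4, a keratin of oral and esophageal mucosa, was higher in tooth by at least 2.96-fold, and Krt6a (-0.36) lay within 2-fold.

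Cells other than epithelium also differed. All 5 detected skeletal muscle genes were higher in skin by 2-fold or more (median 3.38, with Tnnt3 at 3.82 and Myh8 at 3.49), and Mylpf was detected on neither array. All 6 melanocyte genes were higher in skin by 2-fold or more (median 6.39, with Pmel at 7.46, Mlana at 6.68 and Tyrp1 at least 296.5-fold). Of these, 5 were measured on both arrays, with a median of 6.10. Of 4 detected red cell genes, 1 was higher in tooth by 2-fold or more (Hba-a1, -1.23), with a median of -0.82, and 3 were under spike-in scaling.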
